A study of Mus musculus with 6 samples.

Results

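The genes described here encode the protein subunits of the mitochondrial ribosome that carry the names Mrpl (large subunit) and Mrps (small subunit). They were chosen as the protein-coding genes whose symbol starts with Mrpl or Mrps and a digit and whose mean was at least 1 CPM (a gene's share of the library's reads, scaled to the same total in every library) over all 6 libraries. All 78 such genes of the annotation met the rule, 49 named Mrpl and 29 named Mrps, among 10511 genes that passed the same limit and 25654 identifiers with a value. No member lay near the limit: the lowest were Mrps27 at 10.3 CPM, Mrpl38 at 13.6 CPM and Mrps28 at 14.3 CPM.

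Mitochondria keep a small genome of their own, and its messenger RNAs all encode subunits of the respiratory chain and the ATP synthase. They are translated inside the organelle by a dedicated ribosome, whose ribosomal RNAs come from the mitochondrial genome while every protein is encoded in the nucleus, made in the cytosol and imported. CD8 T cells enlarge their mitochondria after activation, and mitochondrial translation is known to be needed for their proliferation and effector function.

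RNA was measured in CD8 T cells from spleens of wild-type female C57BL/6 mice in 2 groups that differ in age: Young, from mice 6 weeks old, and Aged, from mice about 65 weeks old, with 3 libraries each. In both groups 750000 cells were activated for 2 days on immobilized antibody to TCR-β (3 µg/ml) with antibody to CD28 (1 µg/ml), then kept in IL-2 (10 ng/ml), a T cell growth factor, for 5 more days, 7 days in all. No library of unstimulated cells was used here, so every value is that of an activated and expanded culture, and a difference present in the mouse cannot be told apart from one that arose in culture. The labels call the libraries biological replicates but do not tie each one to its own mouse, so the p-values measure the spread between these libraries. QuantSeq reads 1 short stretch at the 3′ end of a polyadenylated transcript. A gene's CPM thus counts transcript ends and is not divided by length. Levels of different genes can be set side by side only as far as reads were counted to the right gene.

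The libraries held between 1952552 reads (Aged 1) and 2785915 reads (Young 2), so that 1 read was worth 0.359 to 0.512 CPM and no member had fewer than 22 reads in any library. The CD8 T cell markers summed to 3404 to 3532 CPM in young and 2989 to 3324 CPM in aged libraries, and Cd4 stayed between 0 and 0.384 CPM. Of the 8 CD8 T cell markers, 5 fell (Cd3d, Cd3g, Cd3e, Cd2 and Cd8b1), Thy1 rose, and Cd8a and Cd247 were not called. The median log2 fold change of the 8 was -0.37. By the same test, described below, 12.5% of all tested genes were called lower and 16.2% higher. Markers of other cells were low: the B cell list summed to 2.51 to 9.99 CPM in young and 0 to 1.53 CPM in aged libraries (Cd79a and Ms4a1 at 0), natural killer genes to 25.5 to 29.1 and 14.6 to 20.5, and erythroid genes to 10.0 to 22.3 and 1.15 to 4.71. Myeloid genes summed to 2.15 to 4.78 CPM in young and 1.54 to 8.47 in aged libraries (Lyz2 and Adgre1 at 0). All 6 genes of a proliferation list were called higher in aged cells, beside 16.2% of all tested genes. Their sums were 1579 to 2015 CPM in young and 3046 to 3083 CPM in aged libraries. The part of these differences in the results below was not tested, and fewer cells of a kind cannot be told apart from less RNA per cell.

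Of the 78 mitochondrial ribosomal protein genes, 21 rose in aged cells and 1, Mrpl9, fell (limma on log2(CPM + 1), Benjamini-Hochberg adjusted over all 10511 tested genes, threshold 0.05). That is 26.9% of the members called higher, beside 16.2% of all tested genes, and 1.28% called lower, beside 12.5%. Among the 6267 tested genes whose mean CPM lay within the members' range, 19.8% were called higher and 12.8% lower. The median log2 fold change of the members was 0.25, with quartiles of 0.02 and 0.43, and that of all tested genes was 0.03. Changes were small: the ratio of mean CPM among the 21 that rose ran from 1.28 to 1.596. The estimate was positive for 62 of 78 members, beside 53.2% of all tested genes. All 3 aged libraries lay above all 3 young ones for 34 members and below them for 3 (Mrpl9, Mrpl45 and Mrpl58), beside 22.5% and 18.3% of all tested genes. In the other 41 members the groups overlapped. Since CPM is a share of a library, how high the members stand depends on the scaling: with upper-quartile scaling 16 rose and 2 fell, with a median of 0.17 (12.4% and 16.1% of all tested genes), while over all tested genes the calls went from 1701 higher and 1313 lower to 1306 higher and 1689 lower. DESeq2 on reads recovered from the CPM called 10 members higher and 0 lower (18 and 1 at an unadjusted p under 0.05), beside 8.98% and 9.65% of all tested genes.

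**Figure D1:**
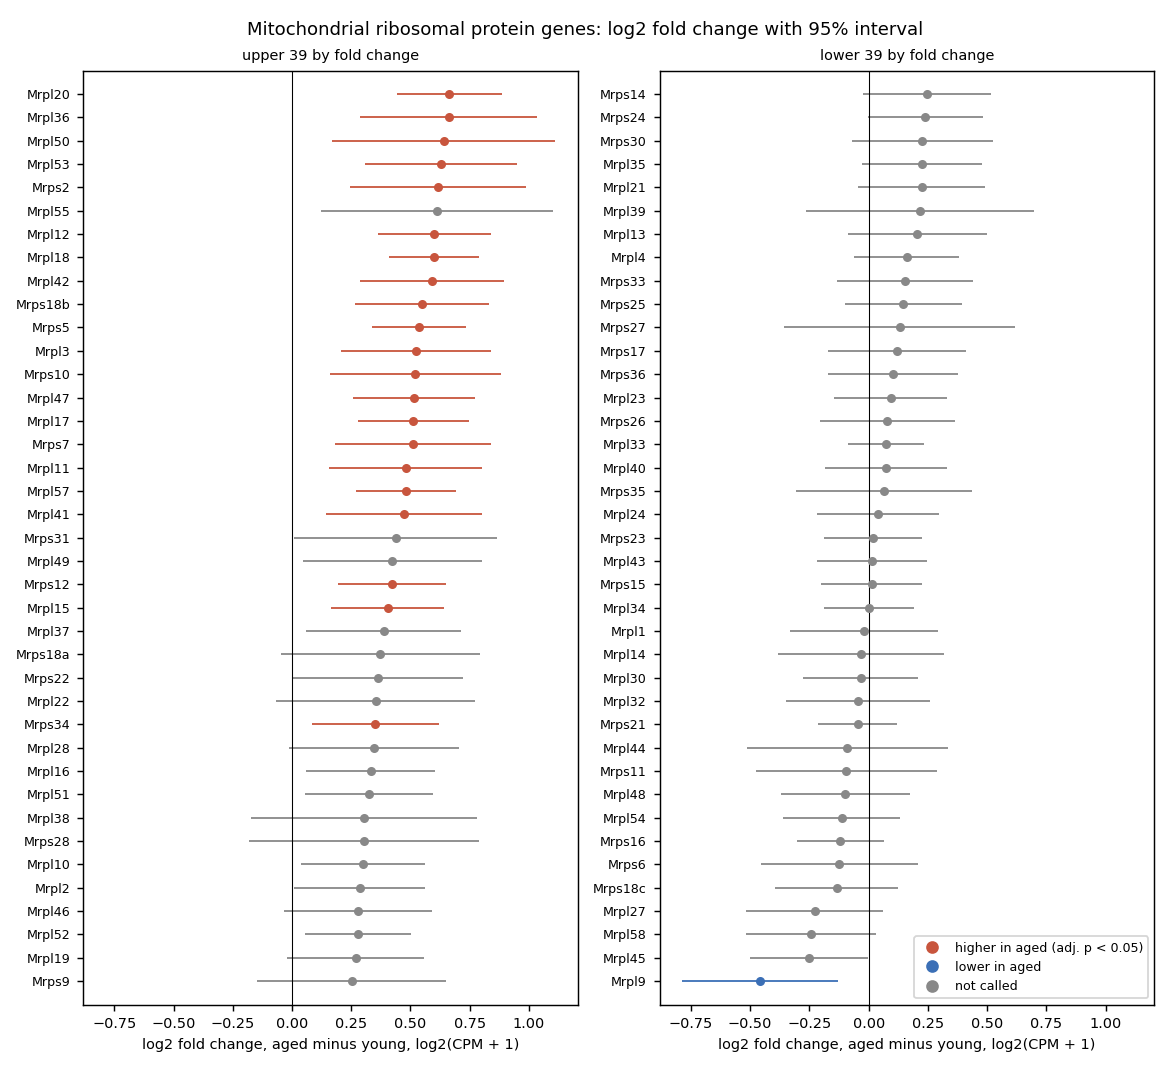
Log2 fold change on log2(CPM + 1), aged minus young, with its 95% interval from limma, for all 78 members in order of the estimate (left, upper 39; right, lower 39). Red points mark the 21 members called higher, the blue point Mrpl9, and grey points the 56 not called; estimates run from -0.46 to 0.66.

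Summed over the members, mitochondrial ribosomal protein transcripts made up 3687, 3726 and 3723 CPM in the young libraries and 4312, 4313 and 4331 CPM in the aged ones. The groups did not overlap, and the aged mean was 1.16 times the young mean. The 21 genes that rose held most of this: their sum went from 947 ± 15.0 CPM to 1380 ± 17.8 CPM (SD, n = 3), chosen here by the same test, while the 56 members not called went from 2733 ± 9.99 CPM to 2917 ± 24.9 CPM (SD, n = 3).

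By subunit, 51 members belong to the large subunit, which carries the peptidyl transferase centre and the exit tunnel; they include Mrps18a and Mrps30, whose proteins sit there despite their names. Of these, 14 rose, 1 fell and 36 were not called, with a median log2 fold change of 0.28. The small subunit, which holds the messenger RNA and the decoding centre, has 26 members. Of those 26, 7 rose, none fell and 19 were not called, with a median of 0.20. The share that rose was thus nearly the same, 27.5% in the large and 26.9% in the small subunit. It was 16.2% of all tested genes and 19.8% of those in the members' range of levels. The share that fell was 1.96% in the large subunit, beside 12.5% of all tested genes. Mrps36, now assigned to the oxoglutarate dehydrogenase complex, was counted in neither and averaged 45.6 CPM in the young and 48.7 CPM in the aged group (log2 fold change 0.10, limma adjusted p = 0.61). Summed large-subunit CPM was 2354, 2410 and 2428 in young and 2857, 2844 and 2834 in aged libraries. Summed small-subunit CPM was 1295, 1266 and 1245 in young and 1407, 1420 and 1447 in aged libraries. Both sums were higher in every aged library, by 1.19-fold and 1.12-fold. The ratio of the sums, large over small, was 1.82, 1.90 and 1.95 in young and 2.03, 2.002 and 1.96 in aged libraries, so Young 3 and Aged 3 nearly met.

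By origin, 45 members have a counterpart in the bacterial ribosome. Of these, 14 rose (31.1%) and 1 fell (2.22%) by limma (median 0.25), beside 16.2% and 12.5% of all tested genes. With upper-quartile scaling 12 of them rose and 1 fell, beside 12.4% and 16.1% of all tested genes. The 30 subunits classed as specific to mitochondria, Mrps18a and Mrps30 among them, had 6 that rose (20%) and 0 that fell by limma (median 0.25), and with upper-quartile scaling 3 that rose and 1 that fell. The share of 20% is near the 19.8% of tested genes in the members' range of levels. Mrps18b, Mrps28 and Mrps36 were left out of this division. By level, the members that rose had a median of 49.5 CPM and those not called 41.5 CPM, and across the 78 genes, which are not independent and share the same libraries, log2 fold change and log2 mean CPM had a Pearson r of -0.116.

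Among the large-subunit members, Mrpl18, a protein of the central protuberance, had the smallest p. It measured 107, 122 and 100 CPM in young and 178, 165 and 156 CPM in aged libraries. Every aged library stood well above every young one, with means of 110 ± 10.9 and 167 ± 11.1 (SD, n = 3), a log2 fold change of 0.60 ± 0.09 (SE) and a limma adjusted p of 5.94e-05. It was also the third most abundant member.

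Mrpl20, whose bacterial counterpart binds ribosomal RNA early in large-subunit assembly, had the largest estimate. Its values were 64.8, 61.7 and 71.9 CPM in young and 94.2, 115 and 107 CPM in aged libraries. The groups were clearly apart (log2 fold change 0.66, limma adjusted p = 8.79e-05). The last bases of an Mrpl20 transcript are near-identical to parts of many other genes, as a repeat would be, so reads there may have been shared out in counting.

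Mrpl12, the flexible stalk protein that contacts translation factors, was at 71.3, 75.02 and 58.0 CPM in young and at 99.9, 116 and 95.1 CPM in aged libraries. No young value reached the lowest aged one (log2 fold change 0.60, limma adjusted p = 0.000485). Mrpl36, a small late-joining protein, was at 27.4, 33.4 and 18.4 CPM in young and 43.0, 38.3 and 42.4 CPM in aged libraries. The young libraries spread widely, yet all stayed below the aged ones (log2 fold change 0.66, limma adjusted p = 0.00823; with DESeq2, adjusted p = 0.0634).

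Mrpl53, a mitochondria-specific protein, was at 22.2, 30.5 and 26.9 CPM in young and 43.5, 36.8 and 43.8 CPM in aged libraries (log2 fold change 0.63, limma adjusted p = 0.00404). Mrpl42, also mitochondria-specific, was at 31.7, 48.5 and 34.6 CPM and then 56.3, 56.4 and 58.8 CPM (0.59, limma adjusted p = 0.00419). Both rose without overlap, and in Mrpl42 the young libraries carried nearly all of the spread. Mrpl3, whose bacterial counterpart lies close to the peptidyl transferase centre, was at 27.8, 24.8 and 31.9 CPM in young and 39.4, 36.4 and 47.1 CPM in aged libraries (0.52, limma adjusted p = 0.0127). Its call was lost without Young 2 (adjusted p = 0.0648) and without Aged 3 (adjusted p = 0.0703). Mrpl50 was the weakest of those singled out, at 19.6, 9.33 and 14.6 CPM in young and 23.6, 21.1 and 22.1 CPM in aged libraries (0.64, limma adjusted p = 0.0392). Leaving out any library but Young 1 lost its call, with limma adjusted p from 0.0557 to 0.221, the last without Young 2. The call was also lost with TMM, RLE and upper-quartile scaling.

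Among the small-subunit members, Mrps5, whose bacterial counterpart acts in decoding accuracy, had the smallest p. It measured 71.7, 70.4 and 72.6 CPM in young and 97.8, 110 and 105 CPM in aged libraries. The young libraries lay within a few CPM of one another and far below the aged ones (log2 fold change 0.54, limma adjusted p = 0.000269). Mrps2 was at 24.8, 16.5 and 17.3 CPM in young and 28.7, 32.2 and 29.2 CPM in aged libraries (0.62, limma adjusted p = 0.0133; without Young 2, adjusted p = 0.0668). Mrps10 was at 17.4, 22.6 and 21.9 CPM and then 26.1, 34.9 and 29.2 CPM (0.52, limma adjusted p = 0.029). The Mrps10 call was lost without Young 1, Aged 2 or Aged 3, with adjusted p from 0.0502 to 0.136, and also with upper-quartile scaling.

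Besides these 11 and Mrps18b, described with its paralogs, the other 9 members that rose were Mrpl57, Mrpl17, Mrpl47, Mrps7, Mrpl11, Mrpl41, Mrps12, Mrpl15 and Mrps34. Mrps12, whose bacterial counterpart lines the decoding centre and is the classic site of streptomycin resistance, went from 55.5 ± 3.42 to 74.7 ± 4.86 CPM (SD, n = 3; limma adjusted p = 0.00598). Their ratios of mean CPM ran from 1.28 (Mrps34) to 1.46 (Mrps7), and in all 9 the groups did not overlap. Mrpl57, Mrpl17, Mrpl47 and Mrps12 stayed called whichever library was left out. The calls of Mrpl15, Mrps7, Mrpl11, Mrpl41 and Mrps34 were each lost without at least 2 libraries, with adjusted p up to 0.0694, 0.128, 0.102, 0.175 and 0.192. In all, 12 of the 21 kept their call with any library left out, and 10 kept it in each of the 18 alternatives: Mrpl18, Mrpl20, Mrps5, Mrpl12, Mrpl57, Mrpl17, Mrpl47, Mrpl53, Mrpl42 and Mrps18b.

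**Figure D2:**
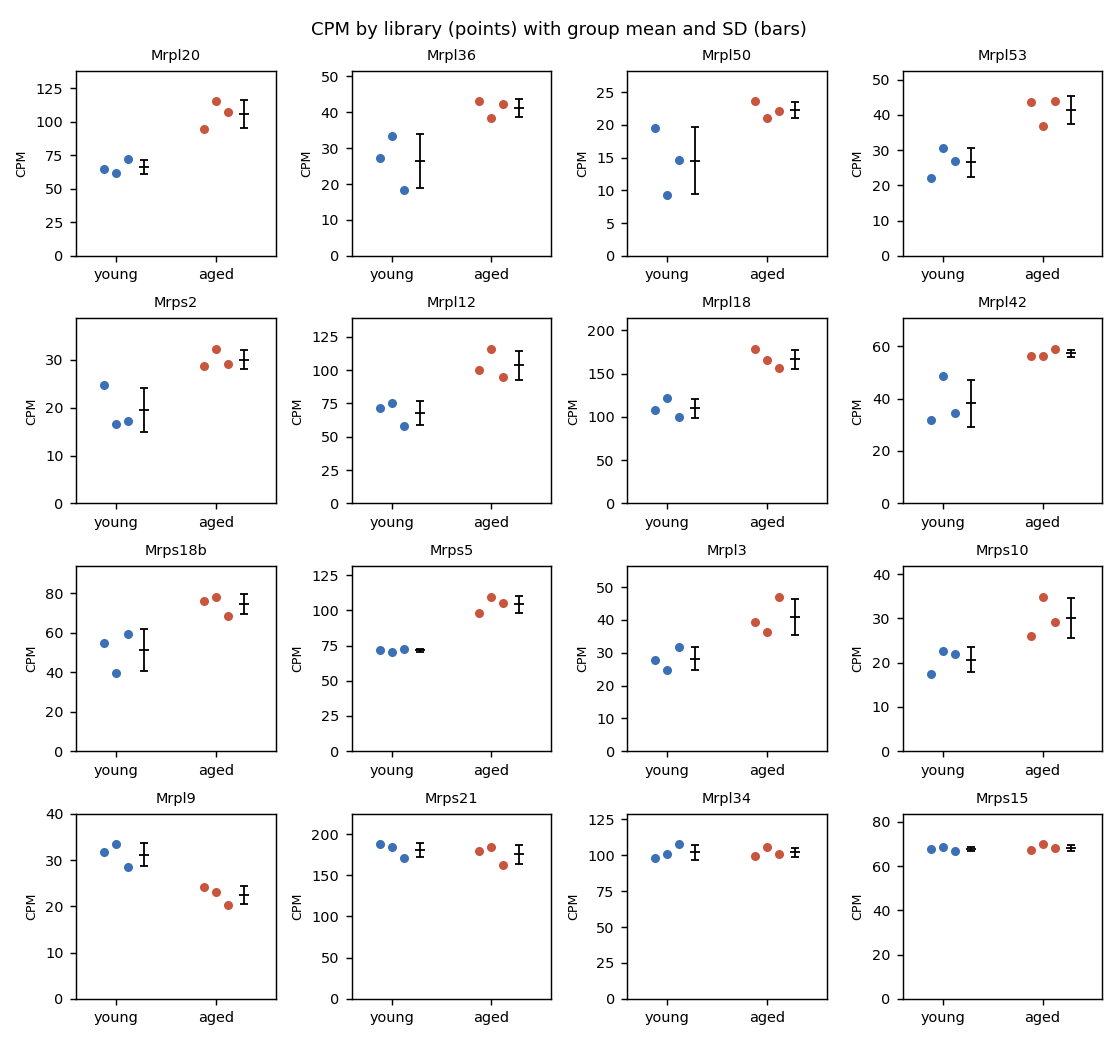
CPM in each library (points; young blue, aged red) with the group mean and SD (bars, n = 3) for the 12 members with the largest rises, for Mrpl9 and for 3 abundant members that were not called. Each vertical axis starts at 0; the groups do not overlap in the first 13 panels and overlap in Mrps21, Mrpl34 and Mrps15.

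Mrpl9, a large-subunit protein with a bacterial counterpart, was the exception in direction. It stood at 31.7, 33.4 and 28.4 CPM in young and 24.1, 23.0 and 20.2 CPM in aged libraries. All aged values were below all young ones (31.2 ± 2.52 against 22.4 ± 1.98 CPM, SD, n = 3; log2 fold change -0.46 ± 0.16 (SE), limma adjusted p = 0.0347). The call held without Young 3 and without Aged 1 but not without any other library: limma adjusted p was 0.099 without Young 1, 0.124 without Young 2, 0.0564 without Aged 2 and 0.107 without Aged 3. The other 2 members whose aged libraries all lay below the young ones, picked out after their values were seen, were not called. Mrpl45, which tethers the ribosome to the inner membrane, was at 63.0, 59.6 and 63.0 CPM in young and 45.6, 58.7 and 51.8 CPM in aged libraries (log2 fold change -0.25, limma adjusted p = 0.122). Mrpl58, a peptidyl-tRNA hydrolase built into the large subunit, was at 46.5, 47.4 and 48.4 CPM and then 34.8, 39.9 and 45.7 CPM (-0.24, limma adjusted p = 0.18).

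Several of the most abundant members stayed near their young level. Mrps21, the most abundant at 178 CPM on average, was at 187, 184 and 171 CPM in young and 179, 185 and 162 CPM in aged libraries (log2 fold change -0.05, 95% interval -0.21 to 0.12). Mrpl33 was at 157, 167 and 164 CPM and then 173, 176 and 165 CPM (0.07, -0.09 to 0.23), and Mrps16 at 129, 132 and 129 CPM and then 115, 113 and 132 CPM (-0.12, -0.30 to 0.07). In each of these genes the groups overlapped.

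Mrpl34 had the smallest change of all members, with 97.8, 101 and 108 CPM in young and 99.9, 106 and 101 CPM in aged libraries. Both means were 102 CPM, and the 95% interval of its log2 fold change ran from -0.19 to 0.19. Mrps15, Mrpl43, Mrps23 and Mrpl1 likewise had estimates between -0.02 and 0.02, with intervals no wider than -0.33 to 0.29. Of the 56 members not called, 41 had a positive estimate. For 40 of them the whole 95% interval lay inside a 1.5-fold change in either direction, for 16 it reached a 1.5-fold rise, and for 0 it reached a 1.5-fold fall (limma; at an unadjusted p under 0.05, 31 members were higher and 2 lower). The least abundant members were among those not called: Mrps27, a small-subunit protein of the pentatricopeptide repeat type, was at 9.84 ± 1.36 and 10.8 ± 0.458 CPM (SD, n = 3), Mrpl38 at 12.1 ± 2.93 and 15.1 ± 2.31, and Mrps28 at 12.8 ± 3.29 and 15.9 ± 3.30.

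Members also differed in how far libraries of 1 group spread. Mrpl39, picked out after its values were seen, was at 21.3, 22.3 and 22.7 CPM in young but at 38.4, 15.7 and 28.2 CPM in aged libraries, the widest spread on the log scale. Mrpl1 was between 27.7 and 28 CPM in young and at 26.1, 27.6 and 28.7 CPM in aged libraries, among the narrowest.

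The 3 relatives of the bacterial S18 protein occupy separate places in the mitochondrial ribosome. In the division by origin above, only Mrps18c was counted as the bacterial counterpart, Mrps18a was counted with the mitochondria-specific subunits, and Mrps18b was left out. Mrps18b, of the small subunit, was at 54.8, 39.5 and 59.6 CPM in young and 76.3, 78.2 and 68.7 CPM in aged libraries, without overlap (log2 fold change 0.55, limma adjusted p = 0.00454). Mrps18a, of the large subunit, was at 19.1, 16.5 and 26.1 CPM and then 27.1, 20.7 and 32.9 CPM, with overlapping groups (0.37, limma adjusted p = 0.183). Mrps18c, of the small subunit, was at 55.2, 57.4 and 45.7 CPM and then 50.7, 45.6 and 47.1 CPM, again overlapping (-0.14, limma adjusted p = 0.461). The difference between the paralogs' changes was not tested.

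Nuclear genes for mitochondrial proteins are known to be driven largely through motifs of NRF1, of ETS factors such as GABP, and of YY1 close to the start site. In RefSeq promoters (GRCm38.p6, 250 bases before to 50 after each start, 75 promoters of 69 members; none for Mrpl13, Mrpl15, Mrpl19, Mrpl38, Mrpl4, Mrpl54, Mrps28, Mrps34 and Mrps35), 7 motifs were searched on both strands. The NRF1 motif (GCGCA, any base, then GCGC) was in 17.3% of the members' promoters, beside 10.9% of promoters of tested genes and 4.6% of all 32851. The ETS motif CCGGAAG was in 34.7%, beside 19.3% and 8.86%, and the YY1 motif AAGATGGC in 16%, beside 4.82% and 2.75%. Of the 59 matches of these 3 motifs, 2 overlapped a match of another motif searched. The others were CREB (TGACGTCA, 2.67% of member promoters, 3.2% of tested-gene and 1.79% of all promoters), the E-box (CACGTG, 9.33%, 10.1% and 7.15%), the GC box (GGGCGG, 52%, 63.4% and 35.7%) and the TATA box (TATAAA, 6.67%, 6.63% and 13.6%).

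The motifs were found in members of every kind. At least 1 of the NRF1, ETS and YY1 motifs was in 11 of the 19 members that rose and had a promoter entry, in Mrpl9, and in 31 of the 49 not called. ETS was in 7 of 19 and 19 of 49, NRF1 in 3 of 19 and 9 of 49, and YY1 in 4 of 19 and 8 of 49. The stretches below, up to 100 bases that end just before the first annotated exon, show this: 2 members that rose (Mrpl12, Mrpl17), the one that fell (Mrpl9) and one below its young level in every aged library (Mrpl45) all carry the NRF1 motif, and Mrpl34 and Mrpl43, with almost no change, and Mrps18a carry the ETS motif. Capitals mark the motif, and each line reads 5′ to 3′ along the gene's strand.
Mrpl12: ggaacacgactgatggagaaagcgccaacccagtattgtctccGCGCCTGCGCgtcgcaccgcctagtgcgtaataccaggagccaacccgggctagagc
Mrpl17: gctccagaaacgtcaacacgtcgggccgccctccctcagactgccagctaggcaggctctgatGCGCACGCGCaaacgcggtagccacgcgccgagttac
Mrpl45: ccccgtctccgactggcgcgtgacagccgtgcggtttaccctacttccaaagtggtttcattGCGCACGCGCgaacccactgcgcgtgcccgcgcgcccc
Mrpl9: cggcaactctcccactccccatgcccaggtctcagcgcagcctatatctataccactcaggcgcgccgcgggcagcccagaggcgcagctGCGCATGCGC
Mrpl34: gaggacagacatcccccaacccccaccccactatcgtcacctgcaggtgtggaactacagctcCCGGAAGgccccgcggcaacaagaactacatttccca
Mrpl43: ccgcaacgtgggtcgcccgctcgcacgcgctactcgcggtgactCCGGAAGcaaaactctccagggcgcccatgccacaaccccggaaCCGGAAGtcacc
Mrps18a: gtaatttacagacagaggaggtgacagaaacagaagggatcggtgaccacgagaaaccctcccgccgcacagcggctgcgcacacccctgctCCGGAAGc
They lie at Mrpl12 at chr11:120484513-120484612 (plus strand), Mrpl17 at chr7:105811100-105811199 (minus strand), Mrpl45 at chr11:97315616-97315715 (plus strand), Mrpl9 at chr3:94443218-94443317 (plus strand), Mrpl34 at chr8:71464826-71464925 (plus strand), Mrpl43 at chr19:45006443-45006542 (minus strand) and Mrps18a at chr17:46110886-46110985 (plus strand), in RefSeq build GRCm38.p6. In these lines the NRF1 motif is read as GCGCACGCGC in both Mrpl17, which rose, and Mrpl45, which was not called.

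Members are spread over 17 chromosomes, and their position bears on how their reads can be counted. Exons of 8 members overlap another gene on the same strand, those of 28 a gene on the other strand, and 20 have a 3′ end near-identical (at least 95% over at least 100 of the last 300 bases) to a transcript of another gene. How the authors' counting used strand and multiply matching reads is not given in the sources used here, so values of these genes are uncertain to that extent. Among the 33 members with none of these, 7 rose (21.2%, beside 16.2% of all tested genes and 19.8% of those in the members' range of levels) and 0 fell by limma, with a median of 0.29. That share is nearer to the background than the 26.9% of all members. Of the 21 that rose, 9 overlap a gene on the other strand, 3 a gene on the same strand (Mrpl53, Mrpl3 and Mrps34), and 8 have a near-identical 3′ end elsewhere (Mrpl20, Mrps5, Mrpl53, Mrpl42, Mrps18b, Mrpl36, Mrps10 and Mrpl41). The first 5 of those 8 are among the 10 called in every alternative. Mrpl18 overlaps Tcp1, a subunit of the cytosolic chaperonin, which also rose (327 to 414 CPM, limma adjusted p = 0.0004), and Mrpl47 overlaps Actl6a, which rose too (27.0 to 44.7 CPM, limma adjusted p = 0.00051). For those 2 pairs, reads counted to the wrong partner cannot be told apart from reads of the member. The tested genes that overlap Mrpl36, Mrps7 and Mrps34 were not called.

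A protein-coding neighbour starting within 1000 bases on the opposite strand, a head-to-head pair, was found for 18 members (23.1%), beside 11.3% of tested protein-coding genes. Of the 15 such neighbours tested, 4 rose and 2 fell, beside 16.2% and 12.5% of all tested genes. Mrpl57 and Ska3, a kinetochore protein, start 49 bases apart and both rose (Ska3 5.37 to 10.1 CPM, limma adjusted p = 0.0356). Mrps34 and Eme2 start 29 bases apart and both rose (Eme2 3.56 to 7.98 CPM, limma adjusted p = 0.029). In 1 pair both genes were called in opposite directions: Mrpl41 rose, while Pnpla7, which starts 935 bases away, fell from 9.51 to 4.53 CPM (limma adjusted p = 0.022). Fau, which encodes a cytosolic ribosomal protein fused to a ubiquitin-like one, fell from 2955 to 2221 CPM (limma adjusted p = 5.21e-06) while Mrpl49, which starts 59 bases away, was at 15.2, 17.6 and 16.9 CPM in young and 21.0, 25.7 and 21.2 CPM in aged libraries (log2 fold change 0.42, limma adjusted p = 0.0878). These neighbours were named after their values were seen.

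The mitochondrial ribosome also has subunits under other names, and 2 of the 5 measured rose (40%, beside 16.2% of all tested genes). Chchd1 was at 57.0, 63.2 and 55.0 CPM in young and 83.5, 77.4 and 81.0 CPM in aged libraries (log2 fold change 0.46, limma adjusted p = 0.00249). Ptcd3, a pentatricopeptide repeat protein, was at 25.2, 26.6 and 25.4 CPM and then 32.3, 39.9 and 47.1 CPM (0.59, limma adjusted p = 0.007). Both had separate groups, while Aurkaip1, Gadd45gip1 and Dap3 overlapped between groups and were not called (log2 fold changes -0.19, 0.23 and -0.09).

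Of 28 tested genes that assemble the ribosome and modify its RNA, 2 rose (7.14%, below the 16.2% of all tested genes) and 0 fell by limma, with a median of 0.07. They were C1qbp, a matrix protein that binds mitochondrial messenger RNA, with 148, 122 and 142 CPM in young and 208, 212 and 225 CPM in aged libraries (log2 fold change 0.64, limma adjusted p = 1.17e-05), and Mpv17l2, from 40.2 to 53.8 CPM (0.41, limma adjusted p = 0.014). Without Young 2, Mpv17l2 had an adjusted p of 0.0543.

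Of 16 genes listed with the mitochondrial translation factors, Lrpprc among them, 3 rose (18.8%, near the 16.2% of all tested genes) and 0 fell by limma. Their median was 0.22, and with upper-quartile scaling 1 rose, beside 12.4% of all tested genes. Lrpprc, which stabilises mitochondrial messenger RNAs, was at 130, 133 and 135 CPM in young and 174, 182 and 184 CPM in aged libraries, far apart for their spread (log2 fold change 0.43, limma adjusted p = 0.000297). The elongation factor Gfm1 (17.3 to 26.9 CPM, limma adjusted p = 0.0418) and the recycling factor Mrrf (14.2 to 21.0 CPM, limma adjusted p = 0.0449) were near the threshold and lost their calls without 4 and 5 of the 6 libraries in turn, with adjusted p up to 0.202 and 0.164.

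Of 20 genes that charge mitochondrial transfer RNAs, 2 rose (10%) and 1 fell (5%), with a median of 0.17. Of all tested genes, 16.2% rose and 12.5% fell. Iars2 rose from 50.4 to 63.6 CPM (limma adjusted p = 0.0418) and Ears2 from 1.26 to 3.94 CPM (limma adjusted p = 0.0345). Wars2 fell from 6.39 to 2.69 CPM (limma adjusted p = 0.0312). Each of these calls was lost when any of 4 of the 6 libraries was left out, with adjusted p up to 0.143, 0.134 and 0.149. Of 14 tested genes of mitochondrial DNA maintenance and transcription, 2 rose (14.3%, near the same 16.2%) and 0 fell by limma, with a median of 0.24. Tfb2m rose from 12.1 to 20.2 CPM (limma adjusted p = 0.0194) and Ssbp1 from 56.9 to 71.7 CPM (limma adjusted p = 0.0347). Leaving out Young 3 or Aged 3 ended the call of Tfb2m (adjusted p = 0.0972 and 0.0756), and leaving out Young 1, Aged 1 or Aged 3 that of Ssbp1 (adjusted p up to 0.152). Both calls were also lost with DESeq2, and that of Ssbp1 with edgeR, voom and TMM, RLE and upper-quartile scaling.

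Of 11 tested regulators of mitochondrial gene expression, 2 rose (18.2%, near the 16.2% of all tested genes) and 0 fell by limma. Pprc1, a coactivator of the PGC-1 family, was at 10.4, 11.1 and 9.61 CPM in young and 19.97, 26.5 and 17.4 CPM in aged libraries, a ratio of 2.05 without overlap (limma adjusted p = 0.00207). Myc, which drives ribosome and mitochondrial biogenesis in activated T cells, was at 21.3, 23.0 and 33.1 CPM and then 30.7, 43.7 and 44.2 CPM, with overlap between Young 3 and Aged 1 (limma adjusted p = 0.0161; up to 0.093 without 1 of Young 1, Young 2, Aged 2 or Aged 3). Nrf1 itself was at 25.2 ± 1.12 and 31.3 ± 6.38 CPM and Gabpa at 27.9 ± 2.11 and 31.4 ± 1.65 CPM (SD, n = 3; limma adjusted p = 0.233 and 0.445).

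Most transcripts that the mitochondrial ribosome translates, and most genes for proteins of the cytosolic ribosome, were lower in aged cells. Of the 13 messenger RNAs of the mitochondrial genome, 0 rose and 8 fell by limma (61.5%, beside 12.5% of all tested genes), with a median of -0.23. In 2 that were not called, mt-Nd2 (3782 and 4115 CPM) and mt-Nd3 (649 and 710 CPM), all aged libraries lay above the young ones (limma adjusted p = 0.0819 and 0.157). mt-Co1, the catalytic subunit of cytochrome c oxidase, was at 3059, 3108 and 2683 CPM in young and 2089, 2071 and 1955 CPM in aged libraries, with every aged value lower (log2 fold change -0.53, limma adjusted p = 9.19e-07). mt-Nd6, mt-Co2 and mt-Nd5 fell by 0.63, 0.52 and 0.36 on the log2 scale. How reads from opposite strands were told apart is not given, and overlaps were not searched for the mitochondrial genes, so these values are uncertain to that extent. The mitochondrial ribosomal RNAs were not analysed here.

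Of 78 cytosolic ribosomal protein genes tested, 2 rose (2.56%) and 54 fell (69.2%), beside 16.2% and 12.5% of all tested genes, with a median of -0.21. Rpl10a, for example, was at 1513, 1588 and 1465 CPM in young and 1226, 1215 and 1185 CPM in aged libraries (limma adjusted p = 6.17e-05). This list took 16.3%, 17.2% and 16.1% of all CPM in young and 14.7%, 14.3% and 14.4% in aged libraries. The members took 0.369%, 0.373% and 0.372% and then 0.431%, 0.431% and 0.433%. Cytosolic over mitochondrial ribosomal protein CPM was thus 44.3, 46.1 and 43.2 in young and 34.1, 33.1 and 33.2 in aged libraries, and mitochondrially encoded messenger RNA over mitochondrial ribosomal protein CPM was 8.63, 8.88 and 7.77 and then 6.10, 6.18 and 5.76. In both ratios the groups were well apart. The difference between the lists was not tested, and overlaps and near-identical 3′ ends were searched for the members only.

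**Figure D3:**
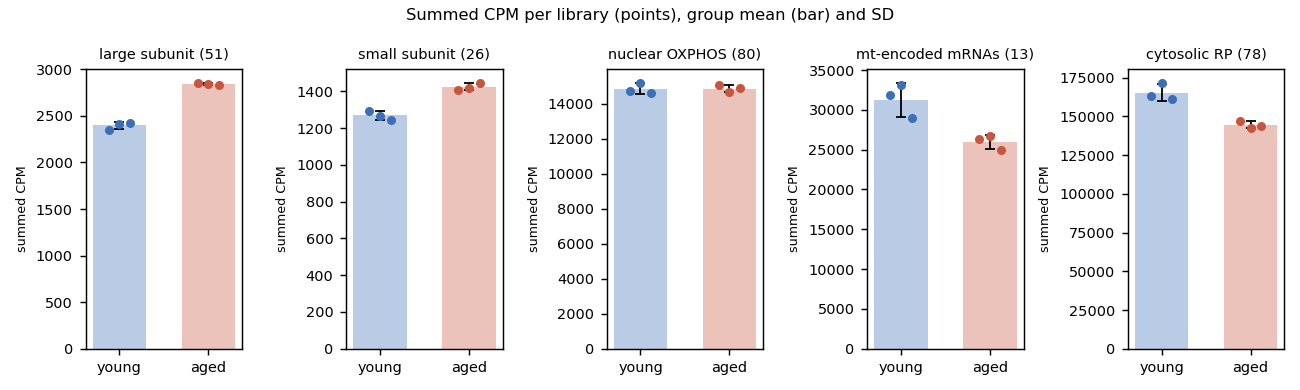
Summed CPM in each library (points) with group mean (bar) and SD (n = 3), from 0, for large-subunit members, small-subunit members, nuclear subunits of oxidative phosphorylation, mitochondrially encoded messenger RNAs and cytosolic ribosomal proteins. The members' sums are higher in every aged library, those of the last 2 lists lower, and those of the nuclear oxidative phosphorylation subunits overlap.

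The nuclear-encoded subunits of oxidative phosphorylation, the partners of the proteins made by the mitochondrial ribosome, had 14 of 80 that rose (17.5%) and 10 that fell (12.5%), beside 16.2% and 12.5% of all tested genes, with a median of 0.04. With upper-quartile scaling 6 rose and 18 fell, beside 12.4% and 16.1% of all tested genes, so the balance depends on the scaling. Their sum was 14714, 15203 and 14619 CPM in young and 15045, 14658 and 14887 CPM in aged libraries, which overlap. Sdhb rose from 185 to 258 CPM (limma adjusted p = 0.000167), whereas Cox7a2l fell from 327 to 209 CPM (limma adjusted p = 2.08e-06) and Ndufv3 from 260 to 169 CPM (limma adjusted p = 3.61e-05).

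**Figure D4:**
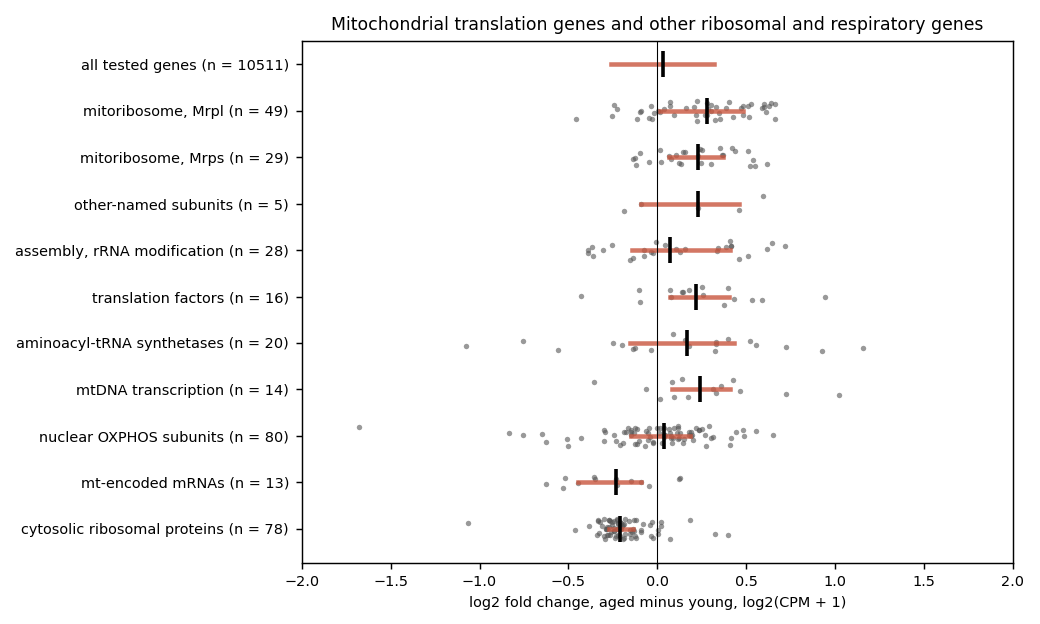
Log2 fold change on log2(CPM + 1), aged minus young, of each gene (points) with the median (black tick) and quartiles (red line) of each list; for all 10511 tested genes only the median and quartiles are drawn. Medians are 0.28 for Mrpl and 0.23 for Mrps genes, 0.04 for nuclear oxidative phosphorylation subunits, -0.23 for mitochondrially encoded messenger RNAs and -0.21 for cytosolic ribosomal proteins, beside 0.03 for all tested genes.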

How the data were processed

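CD8 T cell cultures from young and aged mice were measured with QuantSeq 3′ mRNA-Seq, per the labels' protocols, in 6 libraries. The authors deposited 1 file per library with CPM values, per the file headers. Per the submitters' processing notes, reads were placed on GRCm38 (mm10). For aligner and counter, nothing is given in the sources used here. All deposited CPM values (100%) were whole multiples of 1 read within 0.001 reads, so the reads were recovered for edgeR 4.0.16, DESeq2 1.42.0 and voom as alternatives. The column header in the file of Aged 2 names Aged 3; the file was taken as Aged 2, as its record in the series states. Values were tested with limma 3.58.1 (trend, age group as the only term) on log2(CPM + 1) for the 10511 genes averaging at least 1 CPM over all libraries, with Benjamini-Hochberg adjustment and a threshold of 0.05. Fold changes on this scale understate the change of low genes. Symbols were found for 25599 identifiers and not for 55.

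Genes picked by rule were up to 12 called members per direction with the largest change and no overlap between groups. The 5 most abundant members, the 5 with the smallest change at a mean of at least 20 CPM and the 3 lowest were added. So were the Mrps18 paralogs, the 4 genes of each list with the smallest p, and Myc. Of the list genes so picked, Dhx30, Noa1, Mtrf1, Qrsl1, Top1mt, Tfam, Ppargc1b and Gabpb1, none of them called, are not described here. Nor are Cox6b2, Rpl22l1, Rps19 and Rps16. Nrf1, Gabpa, Dap3, mt-Nd2 and mt-Nd3 were named outside these rules. The members, lists and rules were chosen with earlier results of these data known. Scripts were tested on simulated data. Alternatives were other pseudocounts, filters, scalings, tests, thinning, a replicate block and leaving out each library. Total reads of 1952552 to 2785915 set the precision; 3 reads were 1.08 to 1.54 CPM.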

Additional observations from a re-analysis of the deposited data

How the results depend on the processing

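Over the 18 alternatives none of the genes picked by rule, and none of the other called members, changed direction. Of 1274 values of these genes together, 1129 kept their side of the threshold, 132 were no longer called and 13 became called. The count of members called higher was 21 and fell to 10 with DESeq2 on recovered reads, which called 944 of all tested genes higher (8.98%) and 1014 lower. Elsewhere it lay between 16 and 23, and between 15 and 20 with 1 library left out. The count called lower was 1, became 2 with upper-quartile scaling (Mrpl9 and Mrpl45), and was 0 with DESeq2 (1 at an unadjusted p under 0.05) and with limma on reads thinned to the smallest library (1 at an unadjusted p under 0.05). With 1 library left out it ranged from 0 to 1 (limma, 1 or 2 at an unadjusted p under 0.05). The members' median log2 fold change, 0.25, was 0.20 with TMM, 0.20 with RLE and 0.17 with upper-quartile scaling, 0.20 with edgeR, 0.22 with DESeq2 and 0.19 with voom, and 0.21 to 0.27 with 1 library left out. The scalings moved the median of all tested genes by at most 0.08. Summed CPM of the large subunit was 1.14-fold with TMM, 1.15-fold with RLE and 1.12-fold with upper-quartile scaling, against 1.19, and 1.18 to 1.19 with 1 library left out. That of the small subunit was 1.08-fold, 1.09-fold and 1.06-fold in the same order, against 1.12, and 1.11 to 1.13 with 1 library left out. Libraries with the same replicate number did not deviate together (r of 0.021, 0.000 and 0.003), and not every library matched its own number best. With the replicate number as a block, 23 members were called higher and 1 lower, and 1725 and 1336 of all tested genes. The cause of these differences was not tested. Depth limits the lowest members most: the 95% interval of Mrps27, the least abundant, was -0.36 to 0.62.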
